A study of Danio rerio with 12 samples.

Results

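Wild-type zebrafish follicles of the primary growth stage were compared between females of 50 days post-fertilization (dpf) and females of 8 months post-fertilization (mpf). The comparison used 6 of the 12 bulk RNA sequencing libraries of the study, 3 at each age, picked by their labelled genotype and age. All fish in these 6 libraries were of the AB strain and wild type at the cdkn1a locus (cdkn1a +/+), and follicles were the labelled tissue. The other 6 libraries came from cdkn1a heterozygotes (cdkn1a +/-) of the same ages and stage. The labels do not say whether replicates are separate fish or pools, so p-values measure the spread between these libraries, which may be partly technical. The ages were sampled as separate groups and no batch is given, so that age, maturity and any difference in sampling or library preparation cannot be told apart.

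A primary growth follicle holds an oocyte arrested in meiotic prophase under a thin layer of granulosa (follicle) cells. During this stage the oocyte builds organelles and stores maternal RNA, before yolk is taken up in the later vitellogenic stage. At the younger age a zebrafish female is around its first maturation, and in an adult female primary growth follicles lie in an ovary that also holds yolky and full-grown follicles. A bulk library adds the RNA of the oocyte to that of the cells around it, so that fewer cells of a type and less RNA per cell cannot be told apart.

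The libraries held 31044931 to 58981733 counts at 50 dpf and 46161655 to 66844694 at 8 mpf. Across tested genes, log2 CPM (counts relative to the scaled library size) correlated at 0.980 to 0.986 within 50 dpf, at 0.976 to 0.985 within 8 mpf and at 0.907 to 0.924 between the ages. These correlations run across genes, which are not independent. The axis of greatest variance (74.9%) separated younger from older libraries. The next (9.08%) set 8 mpf replicate 2 apart from 8 mpf replicate 1. Genes that mark the labelled tissue were present at both ages. bmp15 (ENSDARG00000037491), an oocyte-secreted growth factor, was at 203, 192 and 196 CPM at 50 dpf and 179, 172 and 177 CPM at 8 mpf. buc (ENSDARG00000096095), which organizes the Balbiani body of the early oocyte, was at 1320.4, 1164 and 1207 CPM in the 50 dpf libraries and 1334, 1121 and 1375 CPM in the 8 mpf libraries. Neither passed the test between the ages (log2 fold changes -0.16 and 0.05, adjusted p = 0.108 and 0.756). The older libraries were all lower for bmp15, and overlapped with the younger ones for buc. Receptors of later follicles were barely detected: FSHR was at 0.263, 0.268 and 0.257 CPM at 50 dpf and 0, 0.159 and 0 CPM at 8 mpf. lhcgr was at 0.346, 0.268 and 0.293 CPM in the 50 dpf libraries and 0.202, 0.123 and 0.225 CPM in the 8 mpf libraries. FSHR passed as lower without 8 mpf replicate 2, the only 8 mpf library with a count of it (adjusted p = 0.0107). Markers of vitellogenic and late follicles summed to 24.6, 19.4 and 19.6 CPM in the 50 dpf libraries and 13.8, 13.2 and 14.6 CPM at 8 mpf, and 4 of 13 tested members fell and 1 rose. The share of members that fell was near that of all tested genes, given below. Much of the fall of that sum came from a gene named MMP15 (ENSDARG00000051962), at a mean of 8.01 CPM at 50 dpf and 3.65 CPM at 8 mpf. Its libraries overlapped between the ages and it did not pass the test (adjusted p = 0.0561). Markers of primordial and early germ cells summed to 737, 742 and 714 CPM in the 50 dpf libraries and 658, 511 and 607 CPM at 8 mpf, and 5 of 11 tested members fell and 1 rose.

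Of 18834 tested genes, 55.2% changed with age at a false discovery rate under 0.05 in edgeR's quasi-likelihood test with Benjamini-Hochberg adjustment, 28.7% higher and 26.5% lower at 8 mpf. All log2 fold changes below are 8 mpf less 50 dpf, so that a positive value is higher in the older females. Their median over all tested genes was -0.026, with quartiles at -0.68 and 0.64. The members of a list are read against those shares. The direction of small changes depended on the scaling: upper quartile scaling moved the median gene by -0.16 and gave 41.6% of calls higher, against 51.9% with the scaling used here. List medians are read against that shift.

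Transcripts of the liver and of the exocrine pancreas were among the largest declines in these follicle libraries. Of 37 tested liver markers, 35 fell and none rose, with a median log2 fold change of -4.33. A gene could pass the filter on low counts through its 50 dpf libraries alone. A member tested in that way could be called lower but hardly higher, so the filter sets part of this count and median. The summed level of the tested liver markers was 331, 343 and 331 CPM in the 50 dpf libraries and 14.7, 21.5 and 16.8 CPM at 8 mpf. Every 50 dpf library lay far above every 8 mpf library, although the exact two-sided permutation test gives p = 0.1, the smallest value that 3 against 3 libraries allow. fabp10a (ENSDARG00000038439), a fatty acid binding protein of hepatocytes, was at 18.8, 20.4 and 17.8 CPM at 50 dpf and 0, 0.172 and 0.173 CPM at 8 mpf. apoa2 (ENSDARG00000015866), an apolipoprotein of circulating lipoproteins, was at 55.5, 51.9 and 53.4 CPM in the 50 dpf libraries and 0.810, 0.417 and 0.588 CPM in the 8 mpf libraries. Both were nearly lost at the older age (log2 fold changes -7.23 and -6.50, SE 0.47 and 0.28, adjusted p = 3.34e-07 and 4.28e-08). Of the other defining liver markers, FGB (ENSDARG00000008969), a fibrinogen chain, stood at 6.58 ± 1.09 CPM at 50 dpf and 0.459 ± 0.221 CPM at 8 mpf (mean ± SD, n = 3 each, here and below). ahsg2, uox, cyp2ad2 and 1 of the genes named AGXT (ENSDARG00000052099) had no count in any 8 mpf library. Without 8 mpf replicate 2, 33 of 37 tested markers fell. The source of these transcripts was not tested, and a change in the follicles cannot be told apart from a change in the tissue carried along.

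Of 19 tested exocrine pancreas markers, 17 fell and 1 rose, with a median log2 fold change of -4.19. They summed to 496, 572 and 520.2 CPM in the 50 dpf libraries and 73.6, 57.3 and 61.7 CPM at 8 mpf, again without overlap (exact permutation p = 0.1). prss1 (ENSDARG00000042993), a trypsinogen, was at 57.3, 66.3 and 64.9 CPM at 50 dpf and 7.71, 4.31 and 6.3996 CPM at 8 mpf. ela3l (ENSDARG00000007276), an elastase, was at 27.8, 32.5 and 26.7 CPM in the 50 dpf libraries and 2.31, 1.14 and 1.28 CPM in the 8 mpf libraries. Both digestive enzymes fell, by 3.36 and 4.22 on the log2 scale (adjusted p = 9.5e-07 and 4.82e-07). ela2l (ENSDARG00000056765), another elastase, was at 24.4, 26.2 and 24.6 CPM at 50 dpf and had 3 counts over the 8 mpf libraries, all of them in replicate 2, a ratio of 1566 with a 95% counting interval of 535 to 7596. amy2al1 (ENSDARG00000030357), an amylase gene, was the exception, at 25.3, 27.11 and 25.8 CPM at 50 dpf and 30.7, 34.2 and 33.5 CPM at 8 mpf (log2 fold change 0.33, adjusted p = 0.00607). That rise was not called with upper quartile scaling (adjusted p = 0.0974). amy2al1 accounts for much of the 8 mpf sum of the pancreas markers, so that sum understates the fall of the others. Intestinal epithelium markers summed to 18.5, 20.4 and 17.6 CPM in the 50 dpf libraries and 2.59, 4.36 and 3.18 CPM at 8 mpf, and 6 of 10 tested members fell and none rose. One of these, chia.1 (ENSDARG00000100635), a chitinase gene, was at 4.02, 4.19999 and 3.58 CPM at 50 dpf and had no count at 8 mpf, which puts it at least 78.9-fold lower when 3 counts per library are taken as the floor. Both chia.1 and FABP2 were near the detection limit in every group but wild type of 50 dpf. They could hardly have been called higher, so the filter on low counts sets part of the 6. Of the other marker lists, skeletal muscle markers summed to 29.2, 29.5 and 29.0 CPM in the 50 dpf libraries and 15.2, 17.6 and 17.0 CPM at 8 mpf, while 3 of 14 tested members rose and 1 fell. actn3b (ENSDARG00000001431), an alpha-actinin of fast muscle, accounts for much of that sum, at 15.07, 16.2 and 16.5 CPM in the 50 dpf libraries and 1.13, 0.675 and 1.33 CPM in the 8 mpf libraries, and it fell by 3.95 on the log2 scale (adjusted p = 9.58e-08). Erythrocyte markers summed to 41.1, 52.2 and 51.0 CPM in the 50 dpf libraries and 38.3, 29.6 and 31.3 CPM at 8 mpf, and 2 of 10 tested members fell and 1 rose. Their highest member, hbaa1, an alpha globin gene, was at 28.4, 39.7 and 36.9 CPM at 50 dpf and 26.6, 19.4 and 21.7 CPM at 8 mpf and fell (log2 fold change -0.63, adjusted p = 0.0391), a call that was lost without 50 dpf replicate 2 or 3 or 8 mpf replicate 2 or 3 (adjusted p = 0.0976 to 0.13). Male germ cell markers, at a sum of 60.8, 60.3 and 60.2 CPM in the 50 dpf libraries and 36.6, 45.8 and 42.5 CPM at 8 mpf, had 2 higher and 4 lower of 9 tested. Most of that sum came from TBPL1 (ENSDARG00000036868), a relative of the TATA-binding protein, at 43.0 ± 1.55 CPM at 50 dpf and 23.6 ± 1.17 CPM at 8 mpf.

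**Figure D1:**
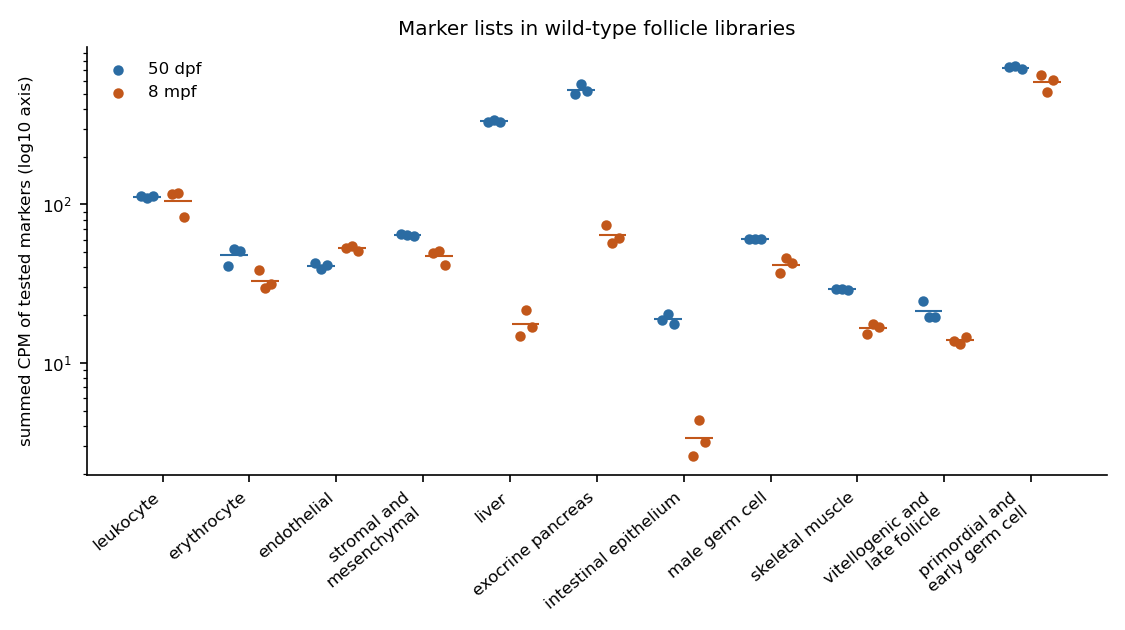
Summed CPM of the tested members of each cell type marker list, on a log10 axis, with 1 point per wild-type library (3 at 50 dpf, 3 at 8 mpf) and a bar at each group mean. Liver markers stood at 331 to 343 CPM at 50 dpf and 14.7 to 21.5 CPM at 8 mpf, exocrine pancreas and intestinal markers were also apart, and leukocyte markers overlapped between the ages.

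Beyond these lists, the genes described next were chosen for the smallest p-values among strongly changed genes whose libraries did not overlap between the ages. DLG4 (ENSDARG00000039385), a scaffold protein of synapses, was at 2.81, 2.53 and 2.90 CPM in the 50 dpf libraries and 18.6, 15.102 and 18.4 CPM in the 8 mpf libraries. KCTD12 (ENSDARG00000069843), an auxiliary subunit of GABA-B receptors, was at 0.823, 0.864 and 1.101 CPM at 50 dpf and 8.54, 7.84 and 10.5 CPM at 8 mpf. Every 8 mpf library was several times above every 50 dpf library for both (log2 fold changes 2.66 and 3.26, SE 0.14 and 0.18, adjusted p = 1.06e-07 and 1.44e-07). SOX4 (ENSDARG00000098834), a transcription factor of the SOX family, rose from 4.52 ± 0.528 CPM to 31.4 ± 4.64 CPM (log2 fold change 2.79, SE 0.16, adjusted p = 1.44e-07). EPB41L4B, a FERM domain protein, and AKAP6, an anchor of protein kinase A, had log2 fold changes of 3.25 and 2.97. ALDOC (ENSDARG00000019702), a glycolytic aldolase, and WIPF2 (ENSDARG00000006712), a partner of WASP in actin assembly, had 1.98 and 2.43. Among the genes that fell most clearly, GPC1 (ENSDARG00000019341), a heparan sulfate proteoglycan, was at 19.2, 17.4 and 18.7 CPM in the 50 dpf libraries and 0.142, 0.233 and 0.121 CPM in the 8 mpf libraries. helz2c (ENSDARG00000012446) was at 8.75, 9.35 and 10.7 CPM at 50 dpf and 0.344, 0.356 and 0.294 CPM at 8 mpf. prkd4 (ENSDARG00000104153), of the protein kinase D family, was at 9.23, 9.41 and 8.55 CPM in the 50 dpf libraries and 0.202, 0.294 and 0.156 CPM in the 8 mpf libraries. All 3 were close to lost at 8 mpf, with log2 fold changes of -6.72, -4.84 and -5.33. TFAP2E (ENSDARG00000008861), an AP-2 transcription factor, was at 31.4 ± 1.96 CPM at 50 dpf and 4.25 ± 0.4999 CPM at 8 mpf (log2 fold change -2.89), and CCM2L, an endothelial adaptor protein, at 18.7 ± 1.22 CPM at 50 dpf and 2.82 ± 0.425 CPM at 8 mpf (log2 fold change -2.74). alox5b.3 (ENSDARG00000069966), of the arachidonate lipoxygenase family, was at 4.33, 5.75 and 6.05 CPM at 50 dpf and had 2 counts over the 8 mpf libraries, both in replicate 1, a ratio of 498 (95% counting interval 137 to 4121). The adjusted p-values of the genes in this paragraph were 4.28e-08 to 1.52e-07. DLG4, SOX4, ALDOC, WIPF2 and GPC1 are symbols that more than 1 gene carries.

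Transcripts that the oocyte stores declined for part of the maternal set. Of 23 tested oocyte transcription factor and maternal effect genes, 13 fell and 2 rose, with a median log2 fold change of -0.56. figla (ENSDARG00000087166), a transcription factor known in mouse for turning on zona pellucida genes, was at 243, 221 and 249 CPM at 50 dpf and 55.4, 40.1 and 50.9 CPM at 8 mpf. SOX3 (ENSDARG00000053569), a SOX family transcription factor, was at 12.8, 11.9 and 13.2 CPM in the 50 dpf libraries and 3.14, 2.13 and 2.32 CPM in the 8 mpf libraries. Both stood apart in every library and fell by 2.29 and 2.32 on the log2 scale (adjusted p = 3.46e-07 and 1.77e-06). ZAR1 (ENSDARG00000019706), which binds maternal RNA, was at 1507 ± 67.3 CPM at 50 dpf and 892 ± 35.4 CPM at 8 mpf (log2 fold change -0.76, adjusted p = 0.000267), and BTG4, an adaptor for clearing maternal RNA, at 1079.9 ± 102 CPM at 50 dpf and 482 ± 91.7 CPM at 8 mpf (log2 fold change -1.16, adjusted p = 5.32e-05). stk31 rose from 41.3 ± 3.93 CPM to 92.6 ± 13.1 CPM (log2 fold change 1.16, adjusted p = 0.000324). GDF9 (ENSDARG00000003229), an oocyte growth factor, was at 59.8, 56.0 and 56.4 CPM at 50 dpf and 54.1, 47.2 and 49.9 CPM at 8 mpf. DAZL (ENSDARG00000036214), an RNA-binding protein of germ cells, was at 151, 161 and 147 CPM in the 50 dpf libraries and 149, 105 and 123 CPM in the 8 mpf libraries. Their differences of -0.19 and -0.28 did not pass the test (adjusted p = 0.0946 and 0.165).

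Of 18 tested zona pellucida genes, which encode the egg envelope, 10 fell and 1 rose, with a median of -0.36. zp3c was at 735 ± 16.5 CPM at 50 dpf and 458 ± 16.4 CPM at 8 mpf (log2 fold change -0.68, adjusted p = 0.000186), and zp3b at 2531 ± 192 CPM at 50 dpf and 1857 ± 327 CPM at 8 mpf (log2 fold change -0.45, adjusted p = 0.0151). zpd was at 88.4, 96.3 and 89.9 CPM at 50 dpf and 34.0, 61.7 and 34.5 CPM at 8 mpf, with replicate 2 nearer to the younger libraries (log2 fold change -1.07, SE 0.23, adjusted p = 0.00157). Reads shared between near-identical zona pellucida copies could have been split between them, so single members are uncertain. The call of zp3b was lost without 50 dpf replicate 2 (adjusted p = 0.072). Of 32 tested germ plasm and piRNA genes, 12 rose and 9 fell (median 0.13, and -0.03 with upper quartile scaling). The 2 directions held different proteins. macf1a (ENSDARG00000028533), a spectraplakin that acts on the Balbiani body of the zebrafish oocyte, was at 15.8, 15.2 and 13.5 CPM in the 50 dpf libraries and 116, 89.8 and 111 CPM in the 8 mpf libraries. TDRD6 (ENSDARG00000070052), a Tudor protein of germ granules, was at 79.6, 240.2 and 98.4 CPM at 50 dpf and 343, 366 and 367 CPM at 8 mpf, with 50 dpf replicate 2 above the other 50 dpf libraries (log2 fold change 2.02 without it). DDX4 (ENSDARG00000014373), the vasa helicase, was at 95.3, 97.9 and 99.0 CPM in the 50 dpf libraries and 201, 154 and 191 CPM in the 8 mpf libraries. All 3 rose (log2 fold changes 2.83, 1.37 and 0.90, SE 0.18, 0.31 and 0.12, adjusted p = 2.45e-07, 0.00249 and 4.81e-05). NANOS3 (ENSDARG00000068255), a translational repressor of germ cells, was at 201, 181 and 191 CPM at 50 dpf and 81.0, 57.5 and 78.0 CPM at 8 mpf. tdrd12 (ENSDARG00000075217), a Tudor protein of the piRNA pathway, was at 65.6, 60.3 and 68.1 CPM in the 50 dpf libraries and 30.2, 24.2 and 28.9 CPM in the 8 mpf libraries. The 8 mpf libraries lay below the 50 dpf libraries for both (log2 fold changes -1.41 and -1.22, SE 0.15 and 0.10, adjusted p = 9.47e-06 and 1.48e-06). PIWIL1, the Piwi protein that binds piRNAs, was at 142 ± 2.47 CPM at 50 dpf and 110.3 ± 3.08 CPM at 8 mpf (log2 fold change -0.37, adjusted p = 0.00126), and gra (ENSDARG00000078754), a germ plasm gene, at 41.1 ± 3.16 CPM at 50 dpf and 14.8 ± 6.97 CPM at 8 mpf (log2 fold change -1.47, adjusted p = 0.00029).

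Meiotic prophase genes were split, with 5 of 23 tested higher and 6 lower. smc1b (ENSDARG00000014402), a meiotic cohesin subunit, was at 1.25, 0.596 and 0.972 CPM at 50 dpf and 5.20, 4.96 and 6.37 CPM at 8 mpf, and stag3, another cohesin subunit, at 15.7 ± 1.62 CPM at 50 dpf and 29.9 ± 4.94 CPM at 8 mpf. Both rose (log2 fold changes 2.52 and 0.93, SE 0.32 and 0.13, adjusted p = 3.17e-05 and 6.77e-05). syce2, a central element of the synaptonemal complex, fell from 7.51 ± 0.495 CPM to 2.78 ± 0.739 CPM (log2 fold change -1.42, SE 0.17, adjusted p = 2.29e-05). SYCP1 was at 1.35, 2.98 and 1.94 CPM in the 50 dpf libraries and 2.85, 5.93 and 3.91 CPM in the 8 mpf libraries, a difference of 1.05 that did not pass the test (adjusted p = 0.0558), and SYCP3 fell from 1.41 ± 0.0879 CPM to 0.830 ± 0.219 CPM (log2 fold change -0.75, adjusted p = 0.0123). SYCP1 passed without 50 dpf replicate 2 or 8 mpf replicate 1 (adjusted p = 0.036 and 0.0326), and SYCP3 did not pass without 8 mpf replicate 1 (adjusted p = 0.0517). Both encode structural proteins of the synaptonemal complex. Without 8 mpf replicate 2 the list median moved from -0.07 to -0.33. Of 31 tested maturation and meiotic arrest genes, 9 rose and 13 fell. CCNB1 and CDK1, the cyclin and kinase of maturation promoting factor, were at 2228 ± 239.9 CPM at 50 dpf and 1744 ± 253 CPM at 8 mpf and at 121 ± 3.97 CPM at 50 dpf and 123 ± 14.04 CPM at 8 mpf, and neither passed the test (adjusted p = 0.0734 and 0.821). pkmyt1 (ENSDARG00000074730), a kinase that holds CDK1 inactive, rose from 14.6 ± 1.31 CPM to 32.7 ± 5.79 CPM (log2 fold change 1.16, adjusted p = 0.000518). fbxo43 (ENSDARG00000104186), also known as Emi2, an inhibitor of the anaphase promoting complex, fell from 566 ± 7.34 CPM to 257 ± 50.2 CPM (log2 fold change -1.14, adjusted p = 0.00018). pttg1 (securin) fell and espl1 (separase), the protease it holds back, rose (log2 fold changes -1.17 and 1.16, adjusted p = 1.73e-05 and 0.00012).

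**Figure D2:**
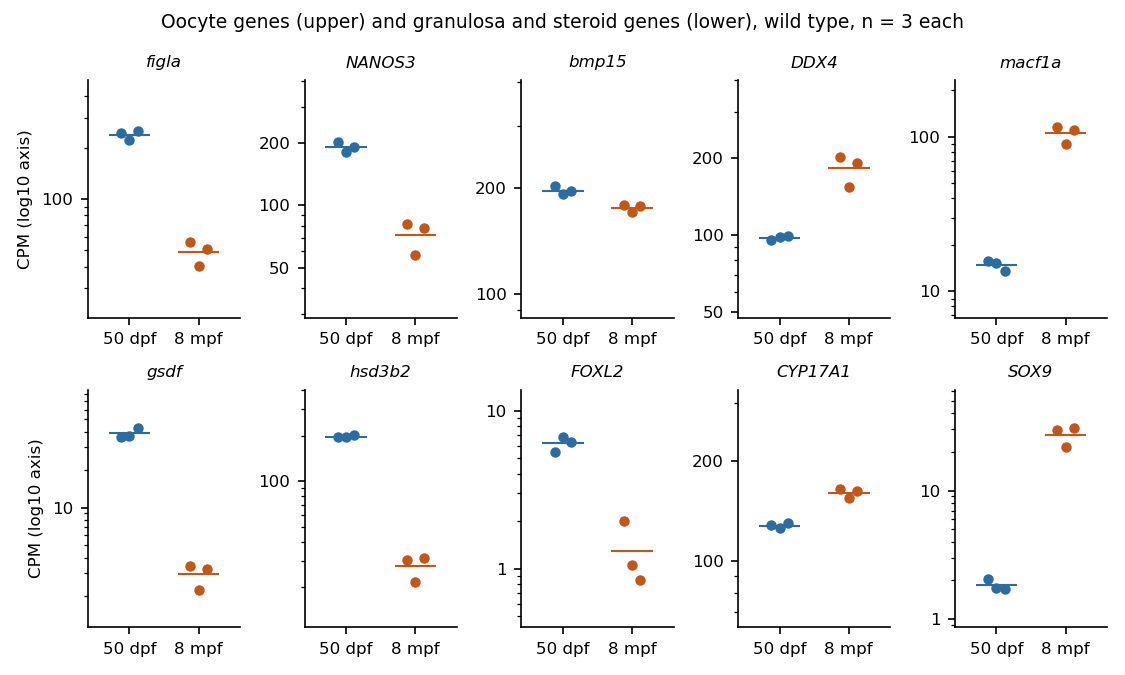
CPM in each wild-type library on log10 axes for oocyte and germ plasm genes (upper row) and for granulosa and steroid synthesis genes (lower row), 3 libraries at 50 dpf and 3 at 8 mpf, with a bar at each group mean. figla, NANOS3, gsdf and hsd3b2 were lower in every 8 mpf library, while macf1a, DDX4 and SOX9 were higher and bmp15 stayed within 172 to 203 CPM.

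Of 23 tested genes of sex differentiation and granulosa identity, 4 rose and 6 fell, with a median of 0.07, or -0.14 without 8 mpf replicate 2. The share that fell (26.1%) was near the 26.5% of all tested genes. The share that rose (17.4%) was under their 28.7%, so the changes below are those of single genes. The 2 genes named FOXL2, a transcription factor that maintains ovarian identity, were at 5.50, 6.82 and 6.36 CPM at 50 dpf and 2.005, 1.06 and 0.848 CPM at 8 mpf (ENSDARG00000068417) and at 1.15, 1.28 and 1.41 CPM in the 50 dpf libraries and 0.0810, 0.270 and 0.104 CPM in the 8 mpf libraries (ENSDARG00000042180). No 8 mpf library reached the 50 dpf range of either (log2 fold changes -2.27 and -2.996, SE 0.31 and 0.43, adjusted p = 5.68e-05 and 8.53e-05). WNT4, a ligand of ovarian development, fell from 2.33 ± 0.184 CPM to 0.472 ± 0.105 CPM (log2 fold change -2.31, adjusted p = 5.28e-05), and GATA6, a transcription factor of gonadal somatic cells, from 6.52 ± 0.697 CPM to 1.78 ± 0.186 CPM (log2 fold change -1.87, adjusted p = 4.9e-06). RSPO1 (ENSDARG00000104340), which potentiates Wnt signalling in the ovary, went the other way, at 3.54 ± 0.255 CPM at 50 dpf and 8.25 ± 0.341 CPM at 8 mpf (log2 fold change 1.22, adjusted p = 4.64e-05). SOX9 (ENSDARG00000043923), whose mammalian orthologue drives Sertoli cell fate, was at 2.06, 1.76 and 1.72 CPM at 50 dpf and 29.5, 21.7 and 30.4 CPM at 8 mpf. It rose (log2 fold change 3.87, SE 0.17, adjusted p = 4.28e-08), while the other gene of that name (ENSDARG00000003293) was at 0.347 ± 0.157 CPM at 50 dpf and 0.674 ± 0.138 CPM at 8 mpf and did not pass the test (adjusted p = 0.297). DMRT1, a male pathway factor, was at 3.31, 3.34 and 3.91 CPM in the 50 dpf libraries and 3.22, 6.26 and 7.39 CPM in the 8 mpf libraries (log2 fold change 0.68, adjusted p = 0.0925), with 8 mpf replicate 1 just under the 50 dpf libraries and the others above them. DMRT1 passed the test without 8 mpf replicate 1 (adjusted p = 0.0163), and the log2 fold change of the second FOXL2 gene was -3.74 without 8 mpf replicate 2.

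Of 24 tested genes of steroid synthesis, 4 rose and 7 fell. The share that fell is near the 26.5% of all tested genes, so the falls below are those of single genes. hsd3b2 (ENSDARG00000019747), a 3-beta-hydroxysteroid dehydrogenase, was at 195, 195 and 201 CPM at 50 dpf and 30.3, 21.8 and 31.4 CPM at 8 mpf. hsd17b1 (ENSDARG00000027469), which makes estradiol from estrone, was at 4.49, 4.71 and 3.76 CPM in the 50 dpf libraries and 0.263, 0.429 and 0.432 CPM in the 8 mpf libraries. Both were lower in all 8 mpf libraries (log2 fold changes -2.82 and -3.50, SE 0.16 and 0.34, adjusted p = 1.46e-07 and 4.99e-06). HSD11B2, which inactivates cortisol, was at 7.09 ± 0.847 CPM at 50 dpf and 1.54 ± 0.405 CPM at 8 mpf (log2 fold change -2.198, SE 0.21, adjusted p = 3.83e-06). CYP17A1 (ENSDARG00000033566), the 17-hydroxylase and lyase of androgen synthesis, was at 128, 126 and 129.5 CPM at 50 dpf and 164, 154 and 163 CPM at 8 mpf, a small rise without overlap (log2 fold change 0.33, SE 0.08, adjusted p = 0.00448). It was not called with upper quartile scaling (adjusted p = 0.0967). STARD3, a cholesterol carrier of late endosomes, also rose, from 43.8 ± 1.25 CPM to 72.3 ± 8.49 CPM (log2 fold change 0.72, adjusted p = 3.83e-05). STAR, which carries cholesterol into mitochondria, was at 0.313, 0.268 and 0.587 CPM in the 50 dpf libraries and 0.283, 0.282 and 0.0519 CPM in the 8 mpf libraries. CYP19A1 (ENSDARG00000041348), the aromatase that makes estrogen, was at 0.839, 0.774 and 0.440 CPM at 50 dpf and 0.304, 0.294 and 0.208 CPM at 8 mpf. Both were close to the detection limit and neither passed the test (adjusted p = 0.263 and 0.0845). Without 8 mpf replicate 2 the list median moved from -0.26 to -0.48.

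Of 28 tested TGF-beta family ligands and inhibitors, 9 fell and 3 rose, with a median of -0.33, or -0.69 without 8 mpf replicate 2. gsdf (ENSDARG00000075301), a fish-specific ligand of granulosa and Sertoli cells, was at 36.3, 36.9 and 43.1 CPM in the 50 dpf libraries and 3.42, 2.23 and 3.27 CPM in the 8 mpf libraries, without overlap between the ages (log2 fold change -3.71, SE 0.18, adjusted p = 6.28e-08). amh, the anti-Mullerian hormone, was at 1.14 ± 0.0987 CPM at 50 dpf and 0.186 ± 0.112 CPM at 8 mpf (log2 fold change -2.57, adjusted p = 0.0101), and inha, the inhibin alpha subunit, at 2.71 ± 0.255 CPM at 50 dpf and 0.786 ± 0.242 CPM at 8 mpf (log2 fold change -1.78, adjusted p = 0.000972). The call of amh, which rests on few counts, was lost by limma with a pseudocount of 0.1 (adjusted p = 0.164). BMP4 fell from 5.54 ± 0.588 CPM to 1.43 ± 0.224 CPM (log2 fold change -1.95, adjusted p = 3.76e-05). bmp16 (ENSDARG00000103679), a ligand of the BMP2 and BMP4 type, rose from 1.80 ± 0.294 CPM to 6.19 ± 0.713 CPM (log2 fold change 1.77, adjusted p = 3.63e-06), and ndr1, a nodal ligand stored in the oocyte, from 10.3 ± 1.44 CPM to 14.8 ± 1.15 CPM (log2 fold change 0.51, adjusted p = 0.0112). The call of ndr1 was lost without 50 dpf replicate 2 (adjusted p = 0.0559). Of 27 tested receptors and Smads of the family, 9 rose, a share near that of all genes, and 3 fell. The genes named BMPR1A rose (ENSDARG00000019728 by 1.29 and ENSDARG00000105045 by 0.86 on the log2 scale, adjusted p = 8.04e-07 and 0.000162), as did ACVR2A, an activin receptor (log2 fold change 0.86, adjusted p = 1.85e-05). ACVR1C (ENSDARG00000086172), a type I receptor for nodal and activin, was at 8.95, 8.79 and 8.62 CPM at 50 dpf and 1.52, 1.44 and 2.01 CPM at 8 mpf and fell by 2.41 (adjusted p = 6.15e-07).

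Receptors for hormones gave 5 rises and 7 falls in 23 tested genes. The genes named IGF1R, the receptor of insulin-like growth factors, rose from 3.50 ± 0.708 CPM to 13.0 ± 0.936 CPM (ENSDARG00000027423; log2 fold change 1.89, SE 0.17, adjusted p = 2.85e-06) and from 22.4 ± 2.77 CPM to 46.3 ± 4.96 CPM (ENSDARG00000034434; log2 fold change 1.05, SE 0.12, adjusted p = 1.68e-05). INSR (ENSDARG00000071524), the insulin receptor, rose as well, at 20.2, 23.4 and 20.5 CPM in the 50 dpf libraries and 52.2, 38.1 and 43.9 CPM in the 8 mpf libraries (log2 fold change 1.06, SE 0.14, adjusted p = 5.52e-05). Of the estrogen receptors, ESR2 (ENSDARG00000016454) was at 21.1, 19.4 and 20.8 CPM at 50 dpf and 8.83, 7.46 and 7.84 CPM at 8 mpf and fell by 1.35 on the log2 scale (adjusted p = 2.04e-06). GPER1, a membrane estrogen receptor, was at 1.22 ± 0.407 CPM at 50 dpf and 0.143 ± 0.0281 CPM at 8 mpf (log2 fold change -3.11, adjusted p = 2.49e-05). PGR, the nuclear progestin receptor, was at 1.52 ± 0.158 CPM at 50 dpf and 0.793 ± 0.0810 CPM at 8 mpf (log2 fold change -0.94, adjusted p = 0.00659). In the Kit, EGF, insulin and IGF pathways 11 of 38 tested genes rose and 11 fell (8 and 12 without 8 mpf replicate 2), near the shares of all tested genes. hbegfa (ENSDARG00000075121), a ligand of the EGF receptor, was at 329, 306 and 297 CPM in the 50 dpf libraries and 127, 142 and 125 CPM in the 8 mpf libraries and fell (log2 fold change -1.24, SE 0.10, adjusted p = 1.63e-06). foxo3a (ENSDARG00000023058), a transcription factor held back by insulin signalling, rose from 42.9 ± 1.64 CPM to 78.4 ± 9.68 CPM (log2 fold change 0.87, adjusted p = 1.66e-05). KIT, the receptor of Kit ligand, was at 0.428, 0.119 and 0.257 CPM at 50 dpf and 0.263, 0.343 and 0.398 CPM at 8 mpf. kitlga, a Kit ligand, was at 2.16, 1.88 and 2.07 CPM in the 50 dpf libraries and 1.24, 1.31 and 1.18 CPM in the 8 mpf libraries. Neither passed the test (adjusted p = 0.711 and 0.188).

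In the Notch and Hedgehog pathways, 8 of 23 tested genes rose and 6 fell. HEY1 (ENSDARG00000070538) and HEY2 (ENSDARG00000013441), transcriptional repressors that Notch induces, moved in opposite directions. HEY1 was at 13.5, 11.7 and 11.8 CPM at 50 dpf and 0.486, 0.822 and 0.571 CPM at 8 mpf. HEY2 was at 1.74, 0.983 and 1.67 CPM in the 50 dpf libraries and 8.56, 8.77 and 9.31 CPM in the 8 mpf libraries. In each the ages were apart in every library (log2 fold changes -4.27 and 2.57, SE 0.25 and 0.20, adjusted p = 1.62e-07 and 1.09e-06). NOTCH3, a receptor, fell from 11.7 ± 0.338 CPM to 3.30 ± 1.22 CPM (log2 fold change -1.83, adjusted p = 4.7e-05), and so did 1 of the genes named NOTCH1 (ENSDARG00000052094; log2 fold change -2.67, adjusted p = 5.76e-05). The other gene named NOTCH1 (ENSDARG00000103554) rose, from 38.8 ± 0.390 CPM to 84.4 ± 15.9 CPM (log2 fold change 1.12, adjusted p = 7.44e-05). The receptor notch2 rose as well (log2 fold change 0.49, adjusted p = 0.008). The Hedgehog transcription factors GLI1 and GLI2 rose, from 1.35 ± 0.0726 CPM to 3.58 ± 0.545 CPM and from 1.93 ± 0.242 CPM to 6.77 ± 0.439 CPM (log2 fold changes 1.41 and 1.82, adjusted p = 4.78e-05 and 5.07e-06), whereas the Hedgehog receptor PTCH1 was at 0.336 ± 0.122 CPM at 50 dpf and 0.312 ± 0.0160 CPM at 8 mpf without a call (adjusted p = 0.872). Wnt pathway genes were mostly not called, with 5 of 34 tested higher and 6 lower (8 and 6 without 8 mpf replicate 2). LEF1, the transcription factor at the end of the pathway, rose from 24.9 ± 0.932 CPM to 45.2 ± 4.17 CPM (log2 fold change 0.86, adjusted p = 3.12e-05), and AXIN2, a common readout of it, was at 45.6, 44.9 and 43.4 CPM at 50 dpf and 54.2, 48.6 and 55.0 CPM at 8 mpf (adjusted p = 0.0718). AXIN2 passed the test without 8 mpf replicate 2 (adjusted p = 0.0289). FZD8 (ENSDARG00000038569), a Wnt receptor, fell from 8.80 ± 0.455 CPM to 1.63 ± 0.322 CPM (log2 fold change -2.44, adjusted p = 3.86e-07).

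Genes of the cytosolic ribosome fell almost as a block. Of 81 tested cytosolic ribosomal protein genes, 79 fell and none rose, with a median of -0.97, and the other 2 were not called. Their summed level was 37909, 37202 and 34516 CPM in the 50 dpf libraries and 19273, 15879 and 19279.8 CPM at 8 mpf, where replicate 2 was the lowest. RPS7 (ENSDARG00000042566), of the small subunit, was at 627, 631 and 605 CPM in the 50 dpf libraries and 242, 288 and 264 CPM in the 8 mpf libraries. RPL24 (ENSDARG00000099104), of the large subunit, was at 515, 539 and 503 CPM at 50 dpf and 211, 173 and 208 CPM at 8 mpf. Both were far lower in each older library (log2 fold changes -1.23 and -1.39, SE 0.14 and 0.14, adjusted p = 1.32e-05 and 6.29e-06). Without replicate 2 of 8 mpf, 77 fell, with a median of -0.89. In the heterozygotes 78 of these genes fell with age, where 25.5% of all tested genes did, with a median of -1.14, and the age effect did not differ between the genotypes at the threshold for any of the 81 (edgeR interaction test), against 13.5% of all tested genes.

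Transcripts of the respiratory chain were mostly lower, from the nuclear and the mitochondrial genome. Of 86 tested nuclear genes of oxidative phosphorylation, 54 fell and 2 rose, with a median of -0.53, and they summed to 10935, 10779.5 and 10519 CPM in the 50 dpf libraries and 9166, 6838 and 9116 CPM at 8 mpf. NDUFB8 (ENSDARG00000010113), of complex I, fell from 97.6 ± 7.77 CPM to 42.9 ± 6.12 CPM (log2 fold change -1.18, SE 0.17, adjusted p = 7.63e-05), and atp5f1e, of the ATP synthase, from 105 ± 3.27 CPM to 49.98 ± 6.29 CPM (log2 fold change -1.07, SE 0.14, adjusted p = 3.57e-05). SDHA, the catalytic subunit of complex II, was 1 of the 2 that rose (the other was NDUFV1), from 90.6 ± 4.24 CPM to 129 ± 14.6 CPM (log2 fold change 0.51, SE 0.12, adjusted p = 0.00276). This list leaned on 8 mpf replicate 2, without which 41 fell and 7 rose. Of 13 mitochondrially encoded protein genes, 11 fell and the other 2 were not called, and all 13 fell without 8 mpf replicate 2. The median was -1.66, or -2.32 without that library, which stood above the other 8 mpf libraries for several members. One of these, MT-ND2 (ENSDARG00000063899), of complex I, was at 55.7, 58.9 and 43.2 CPM in the 50 dpf libraries and 3.60, 19.2 and 4.62 CPM in the 8 mpf libraries (log2 fold change -2.51, SE 0.91, adjusted p = 0.0331). It was named after its values were seen. Its fold change was -3.67 without 8 mpf replicate 2, and the call was lost without any 1 of the other 5 libraries (adjusted p from 0.0528 to 0.11 in edgeR's test). MT-CO1 (ENSDARG00000063905), a catalytic subunit of complex IV, was at 852, 929.9 and 853 CPM at 50 dpf and 374, 353 and 282 CPM at 8 mpf. MT-ND3 (ENSDARG00000063914), of complex I, was at 29.2, 33.2 and 30.2 CPM in the 50 dpf libraries and 7.86, 6.72 and 6.35 CPM in the 8 mpf libraries. The ages did not overlap for either (log2 fold changes -1.38 and -2.14, SE 0.14 and 0.14, adjusted p = 7.64e-06 and 4.02e-07). Of 46 tested proteasome subunit genes, 22 fell and 4 rose. SEM1, of the lid, fell from 115 ± 8.50 CPM to 51.0 ± 3.66 CPM (log2 fold change -1.18, adjusted p = 8.38e-06), while both genes named PSME4, an activator cap, rose by 1.06 (ENSDARG00000018742) and 0.93 (ENSDARG00000087911) on the log2 scale.

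Genes of the secretory pathway went the opposite way. Of 63 tested genes of endoplasmic reticulum (ER) folding, translocation and glycosylation, 38 rose and 4 fell, with a median of 0.53. HSPA5 (ENSDARG00000103846), the ER chaperone BiP, was at 1446, 1348 and 1398 CPM at 50 dpf and 2856, 2359.7 and 2749.6 CPM at 8 mpf. CANX (ENSDARG00000037488), the lectin chaperone calnexin, was at 104, 101 and 105 CPM in the 50 dpf libraries and 297, 276 and 285 CPM in the 8 mpf libraries. Each older library was above each younger one (log2 fold changes 0.93 and 1.47, SE 0.11 and 0.09, adjusted p = 1.42e-05 and 1.78e-07). EIF2AK3 (ENSDARG00000062139), the PERK sensor of unfolded proteins, rose from 51.7 ± 1.35 CPM to 148 ± 11.3 CPM (log2 fold change 1.52, SE 0.12, adjusted p = 1.47e-06), and MOGS, the first glucosidase of N-glycan trimming, from 33.7 ± 2.199 CPM to 68.9 ± 2.75 CPM (log2 fold change 1.03, SE 0.08, adjusted p = 1.51e-06). The transcription factor atf4a, whose translation PERK favours, was lower, at 486 ± 16.3 CPM at 50 dpf and 363 ± 62.5 CPM at 8 mpf (log2 fold change -0.42, SE 0.13, adjusted p = 0.0155), as was SEC61G, the small subunit of the translocon, at 355 ± 26.5 CPM at 50 dpf and 165 ± 26.2 CPM at 8 mpf (log2 fold change -1.11, SE 0.17, adjusted p = 0.000181). Amino acid and tRNA charging genes had 14 of 34 tested higher and 8 lower. The tRNA synthetases EPRS1 and VARS1 rose by 1.06 and 1.03 on the log2 scale (adjusted p = 3.88e-06 and 5.49e-06). ATF3, a stress transcription factor, fell from 34.1 ± 2.599 CPM to 9.69 ± 4.28 CPM (log2 fold change -1.81, SE 0.23, adjusted p = 3.79e-05), and ASNS, asparagine synthetase, from 72.3 ± 2.53 CPM to 58.0 ± 3.79 CPM (log2 fold change -0.32, SE 0.11, adjusted p = 0.0231). The call of atf4a was lost without 50 dpf replicate 2 or 8 mpf replicate 2 (adjusted p = 0.0541 and 0.0533), and that of ASNS without any 50 dpf library or without 8 mpf replicate 1 or 2 (adjusted p = 0.0522 to 0.0949).

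**Figure D3:**
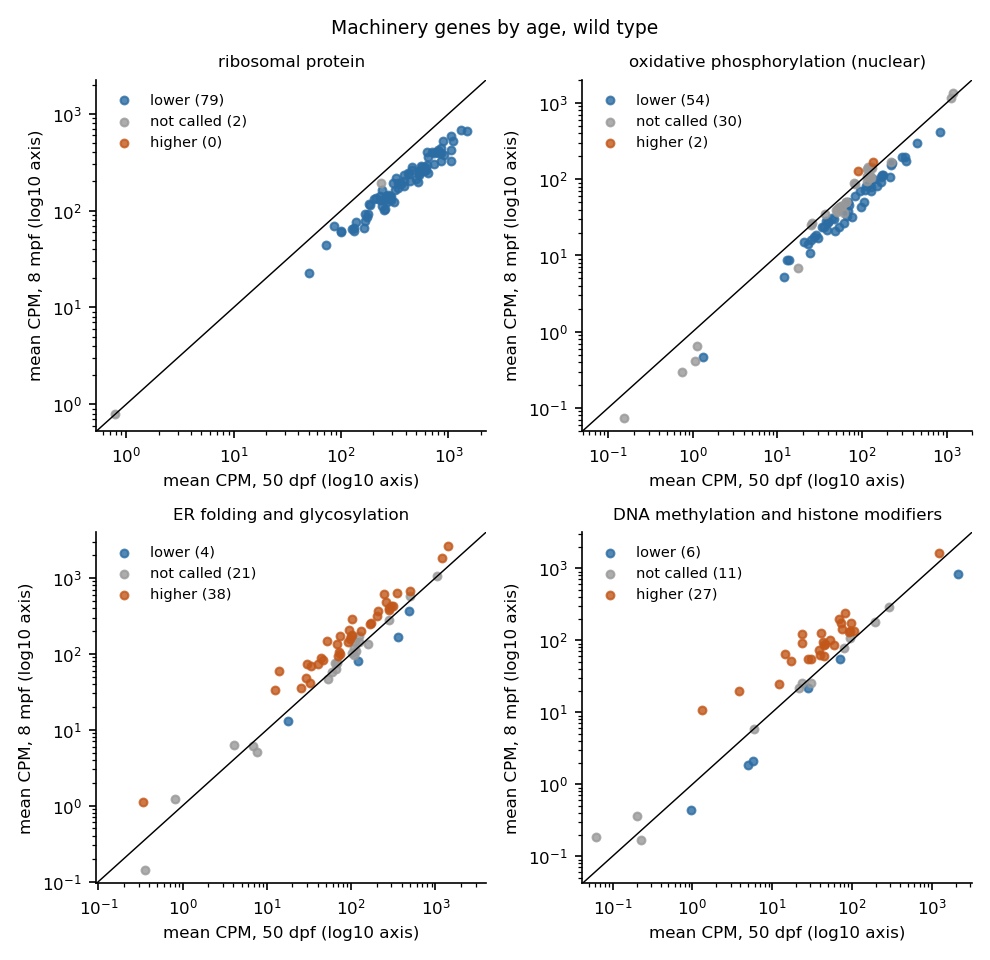
Mean CPM at 50 dpf (x axis) against mean CPM at 8 mpf (y axis) on log10 axes for the tested members of 4 gene lists, with the line of equal level; each point is 1 gene and the mean is over 3 libraries. Ribosomal protein and oxidative phosphorylation genes lie mostly under the line (79 of 81 and 54 of 86 fell), and ER and chromatin genes mostly above it (38 of 63 and 27 of 44 rose).

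Chromatin modifiers also rose: of 44 tested genes of DNA methylation and histone modification, 27 were higher and 6 lower, with a median of 0.76. kdm4aa (ENSDARG00000018782), a histone lysine demethylase, was at 1.51, 1.67 and 0.825 CPM at 50 dpf and 12.6, 10.04 and 10.1 CPM at 8 mpf. kdm2aa (ENSDARG00000059653), another demethylase, was at 76.0, 65.0 and 74.0 CPM in the 50 dpf libraries and 189.7, 157 and 183 CPM in the 8 mpf libraries. SUZ12 (ENSDARG00000098924), a subunit of Polycomb repressive complex 2, rose from 30.6 ± 1.73 CPM to 55.6 ± 2.51 CPM (log2 fold change 0.86, SE 0.08, adjusted p = 4.68e-06). The demethylases likewise had no overlap between the ages (log2 fold changes 3.04 and 1.30, SE 0.29 and 0.12, adjusted p = 4.15e-06 and 3.88e-06). DNMT1, the maintenance DNA methyltransferase, was at 1251, 1191 and 1227 CPM at 50 dpf and 1862, 1403 and 1682 CPM at 8 mpf (log2 fold change 0.43, SE 0.12, adjusted p = 0.00844). The call was lost with upper quartile scaling (adjusted p = 0.0645). tet3, which oxidizes 5-methylcytosine, fell from 5.76 ± 0.921 CPM to 2.11 ± 0.335 CPM (log2 fold change -1.45, SE 0.23, adjusted p = 0.000169).

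DNA replication genes fell more often than they rose, with 30 of 62 tested lower and 15 higher. PCNA (ENSDARG00000054155), the sliding clamp, was at 897, 825 and 867 CPM in the 50 dpf libraries and 555, 441 and 551 CPM in the 8 mpf libraries, and CDT1, which licenses origins, at 349.6 ± 11.4 CPM at 50 dpf and 209 ± 12.9 CPM at 8 mpf (log2 fold changes -0.74 and -0.75, SE 0.14 and 0.08, adjusted p = 0.00064 and 8.81e-06). CCNE2 (ENSDARG00000098529), a cyclin of S phase entry, fell from 17.5 ± 0.498 CPM to 4.95 ± 0.674 CPM (log2 fold change -1.82, SE 0.17, adjusted p = 2.9e-06). The polymerase subunits POLA1 and POLE rose, from 78.0 ± 0.938 CPM to 225 ± 19.4 CPM and from 47.4 ± 1.58 CPM to 109 ± 6.67 CPM (log2 fold changes 1.53 and 1.2002, SE 0.14 and 0.11, adjusted p = 2.7e-06 and 2.88e-06), and MCM2, of the replicative helicase, was at 428, 390.2 and 428 CPM at 50 dpf and 523, 399 and 498 CPM at 8 mpf without a call (adjusted p = 0.228). Of 49 tested mitosis genes, 15 rose and 10 fell. cenpe (ENSDARG00000063385), a kinetochore motor, was at 105, 125 and 86.8 CPM in the 50 dpf libraries and 411, 349 and 397 CPM in the 8 mpf libraries. mki67 (ENSDARG00000091150), which coats mitotic chromosomes, was at 95.8, 155 and 114 CPM at 50 dpf and 363, 338 and 343 CPM at 8 mpf. Both were higher in every older library (log2 fold changes 1.87 and 1.52, SE 0.20 and 0.29, adjusted p = 8.67e-06 and 0.000768). UBE2C and spc24 fell (log2 fold changes -0.94 and -0.71, adjusted p = 9.44e-05 and 0.000287). Without 8 mpf replicate 2, 15 mitosis genes rose and 15 fell.

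The p53 pathway was split, with 9 of 31 tested genes higher and 8 lower, shares near those of all tested genes. ATM (ENSDARG00000002385), a kinase that responds to DNA breaks, was at 8.21, 9.03 and 9.12 CPM in the 50 dpf libraries and 46.8, 43.3 and 44.7 CPM in the 8 mpf libraries, and ATR, the kinase for stalled forks, at 31.1 ± 4.37 CPM at 50 dpf and 85.4 ± 10.4 CPM at 8 mpf. Both rose (log2 fold changes 2.36 and 1.46, SE 0.17 and 0.12, adjusted p = 7.51e-07 and 1.63e-06). CCNG1 (ENSDARG00000076667), a p53 target, was at 759.7, 705 and 739 CPM at 50 dpf and 398, 315 and 401 CPM at 8 mpf, lower in each older library (log2 fold change -0.99, SE 0.10, adjusted p = 8.27e-06), and GADD45A (ENSDARG00000104571) fell from 40.8 ± 1.5001 CPM to 15.6 ± 1.75 CPM (log2 fold change -1.39, SE 0.13, adjusted p = 3.11e-06). mdm2, a ubiquitin ligase of the pathway, was at 34.3, 34.6 and 36.7 CPM in the 50 dpf libraries and 31.4, 32.2 and 29.1 CPM in the 8 mpf libraries and did not pass the test (adjusted p = 0.0764). cdkn1a, the cell cycle inhibitor that the heterozygotes carry in 1 functional copy, was at 3.58 ± 0.259 CPM at 50 dpf and 0.858 ± 0.240 CPM at 8 mpf in these wild-type libraries. Apoptosis genes had 8 of 47 tested higher and 17 lower (5 and 14 without 50 dpf replicate 2). The list holds 13 genes named HTRA2, a mitochondrial protease, and without these 3 of 34 rose and 16 fell. AIFM1, a mitochondrial oxidoreductase, rose from 48.2 ± 1.62 CPM to 124 ± 4.96 CPM (log2 fold change 1.36, SE 0.15, adjusted p = 1.19e-05), and faslg, a death ligand, was at 2.19, 1.64 and 1.80 CPM at 50 dpf and 0, 0.0245 and 0.0692 CPM at 8 mpf (log2 fold change -5.78, adjusted p = 0.000132). It rests on few counts at 8 mpf, and without 8 mpf replicate 3 its log2 fold change was -6.76.

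Of 24 tested genes of yolk precursors, lipoprotein receptors and lipid handling, 7 rose and 10 fell (4 and 9 without 8 mpf replicate 1). VLDLR (ENSDARG00000006257), a receptor of the family that takes up vitellogenin, was at 225, 250.5 and 265 CPM in the 50 dpf libraries and 529.6, 446 and 563 CPM in the 8 mpf libraries. SORL1 (ENSDARG00000013892), a sorting receptor of the same family, was at 27.07, 27.3 and 26.1 CPM at 50 dpf and 67.9, 70.7 and 70.24 CPM at 8 mpf. Each rose in all older libraries (log2 fold changes 1.05 and 1.38, SE 0.13 and 0.17, adjusted p = 3.23e-05 and 3.07e-05). apoeb (ENSDARG00000040295), an apolipoprotein E gene of macrophages and yolk syncytium, was at 8.21, 8.61 and 8.93 CPM in the 50 dpf libraries and 139.8, 176 and 85.4 CPM in the 8 mpf libraries. abca1b (ENSDARG00000079009), a cholesterol exporter, was at 3.95, 3.93 and 4.27 CPM at 50 dpf and 41.4, 31.6 and 19.4 CPM at 8 mpf. The 8 mpf libraries varied among themselves for both, yet the lowest was above every 50 dpf library (log2 fold changes 3.96 and 2.92, SE 0.26 and 0.27, adjusted p = 3.26e-07 and 2.89e-06). The yolk precursor genes vtg1, vtg2 and vtg5 fell by 2.56, 3.16 and 2.18 on the log2 scale (adjusted p = 1.48e-07, 1.01e-07 and 2.45e-07). Reads of near-identical vitellogenin copies could have been split between them. Liver is the main site of vitellogenin synthesis, and liver markers fell alongside as given above; the part of these in the result was not tested. Sterol genes had 11 of 34 tested higher and 7 lower. srebf2 (ENSDARG00000063438), the transcription factor of sterol synthesis, rose from 14.3 ± 1.46 CPM to 39.4 ± 4.54 CPM (log2 fold change 1.46, SE 0.18, adjusted p = 3.16e-05), NPC1, which releases cholesterol from lysosomes, from 48.1 ± 1.86 CPM to 143 ± 14.4 CPM (log2 fold change 1.57, SE 0.12, adjusted p = 1.08e-06), and HMGCS1 from 26.0 ± 4.15 CPM to 59.12 ± 21.4 CPM (log2 fold change 1.19, SE 0.26, adjusted p = 0.0022). LSS, lanosterol synthase of cholesterol synthesis, fell (log2 fold change -1.08, adjusted p = 2.51e-05). Of 40 tested lysosome and cathepsin genes, 17 rose and 6 fell. lamp1b (ENSDARG00000092610), a lysosomal membrane protein, was at 62.9, 61.3 and 63.7 CPM in the 50 dpf libraries and 115, 142 and 127 CPM in the 8 mpf libraries (log2 fold change 1.03, SE 0.11, adjusted p = 7.69e-06), and GLB1, lysosomal beta-galactosidase, at 2.29 ± 0.272 CPM at 50 dpf and 7.33 ± 0.550 CPM at 8 mpf (log2 fold change 1.67, SE 0.14, adjusted p = 2e-06). ctss2.1 (ENSDARG00000074656), a cathepsin S gene, fell from 3068 ± 462 CPM to 1501 ± 228 CPM (log2 fold change -1.03, SE 0.17, adjusted p = 0.000251).

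Leukocyte markers moved in both directions. The macrophage markers marco and csf1ra rose, while cd74a and 1 of the genes named MFAP4 fell. Whether the amount of macrophages changed was not tested. Of 28 tested leukocyte markers, 9 rose and 7 fell (8 and 4 without 8 mpf replicate 1, 6 and 7 without replicate 2), near the shares of all tested genes. Their sum was 113, 110.2 and 113 CPM in the 50 dpf libraries and 116, 118 and 83.6 CPM at 8 mpf, with overlap between the ages (exact permutation p = 1). marco (ENSDARG00000059294), a scavenger receptor, was at 0, 0.119 and 0.165 CPM at 50 dpf and 6.82, 7.30 and 5.21 CPM at 8 mpf. csf1ra (ENSDARG00000102986), a receptor for macrophage colony stimulating factor, was at 0.0823, 0.238 and 0.330 CPM in the 50 dpf libraries and 4.45, 5.13 and 2.25 CPM in the 8 mpf libraries. Both were near the detection limit in the younger follicles and present in each older library (log2 fold changes 6.15 and 4.203, SE 0.55 and 0.64, adjusted p = 7.57e-06 and 0.000132). ptprc, the leukocyte antigen CD45, and LCP1, a leukocyte plastin, rose as well, from 0.347 ± 0.118 CPM to 1.83 ± 0.890 CPM and from 4.28 ± 0.850 CPM to 9.06 ± 2.13 CPM (adjusted p = 0.014 and 0.00251). The call of ptprc was lost without 50 dpf replicate 1 or 8 mpf replicate 2 (adjusted p = 0.0604 and 0.056), and the log2 fold change of marco, which rests on few counts at 50 dpf, was 5.44 without 50 dpf replicate 1 and 7.12 without 50 dpf replicate 3. cd74a, the invariant chain of antigen-presenting cells, fell from 27.6 ± 1.38 CPM to 12.01 ± 1.98 CPM (log2 fold change -1.203, SE 0.24, adjusted p = 0.00117). The 2 genes named CXCR4, a chemokine receptor, moved apart, with 1.31 ± 0.206 CPM at 50 dpf and 8.83 ± 1.57 CPM at 8 mpf for ENSDARG00000041959 and 21.0 ± 2.63 CPM at 50 dpf and 11.01 ± 1.503 CPM at 8 mpf for ENSDARG00000057633 (adjusted p = 2.76e-05 and 0.000132). MFAP4 stands for 5 tested genes of that list, among them 1 that fell (ENSDARG00000111491, log2 fold change -1.75, adjusted p = 0.000104). The other genes named MFAP4 were not called.

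Of 24 tested complement genes, 4 rose and 14 fell. Some that fell, such as c8a, MASP2 and c8g, had no count in any 8 mpf library. They could hardly have been called higher, so the filter on low counts sets part of the 14. The 3 C1q chains, which macrophages make, were among those that rose. c1qb (ENSDARG00000044612) was at 0.132, 0.179 and 0.183 CPM at 50 dpf and 4.60, 3.73 and 3.27 CPM at 8 mpf, and c1qa and c1qc rose from 0.235 ± 0.0136 CPM to 2.28 ± 0.216 CPM and from 1.11 ± 0.0864 CPM to 4.04 ± 0.834 CPM (log2 fold changes 4.55, 3.27 and 1.85, SE 0.33, 0.51 and 0.26, adjusted p = 6.62e-07, 0.000173 and 7.13e-05). The call of c1qa was lost by limma with a pseudocount of 0.1 (adjusted p = 0.0691). c9 (ENSDARG00000016319), a liver product of the membrane attack complex, was at 2.29, 2.204 and 2.18 CPM in the 50 dpf libraries and 0.0810, 0.282 and 0.363 CPM in the 8 mpf libraries. cfb (ENSDARG00000055278), the liver's factor B, was at 1.63, 2.29 and 1.54 CPM at 50 dpf and 0, 0.319 and 0.104 CPM at 8 mpf. Both were lower in each older library (log2 fold changes -3.16 and -3.55, adjusted p = 0.000182 and 0.00347). The log2 fold change of cfb was -4.98 without 8 mpf replicate 2. Liver markers fell alongside c9 and cfb, and their part in the result was not tested. Of 27 tested interferon response genes, 11 fell and 1 rose (6 or 7 fell without any 1 of the 50 dpf libraries or without 8 mpf replicate 1), with a median of -0.61. IRF7 (ENSDARG00000045661), a transcription factor of the interferon response, was at 21.4, 24.2 and 21.2 CPM in the 50 dpf libraries and 1.66, 3.13 and 1.73 CPM in the 8 mpf libraries. PSMB9 (ENSDARG00000000656), an immunoproteasome subunit, was at 12.5, 10.6 and 11.6 CPM at 50 dpf and 2.19, 1.69 and 1.82 CPM at 8 mpf. TAP1, the peptide transporter of antigen presentation, was at 18.2 ± 0.548 CPM at 50 dpf and 7.37 ± 0.498 CPM at 8 mpf. The older libraries were lower throughout for these (log2 fold changes -3.34, -2.61 and -1.30, SE 0.23, 0.20 and 0.13, adjusted p = 5.41e-07, 8.43e-07 and 4.24e-06). isg15 was at 0.263, 0.357 and 0.404 CPM in the 50 dpf libraries and 0.182, 0.233 and 0.259 CPM in the 8 mpf libraries, without a call (adjusted p = 0.338). In eicosanoid synthesis 3 of 20 tested genes rose and 8 fell. ptgs1 (ENSDARG00000052148), a cyclooxygenase, was at 3.27, 4.02 and 4.05 CPM at 50 dpf and 11.9, 11.1 and 10.7 CPM at 8 mpf. PTGES (ENSDARG00000020136), a prostaglandin E synthase, was at 26.8, 27.6 and 27.3 CPM in the 50 dpf libraries and 5.37, 3.53 and 4.05 CPM in the 8 mpf libraries. They moved in opposite directions without overlap (log2 fold changes 1.57 and -2.66, SE 0.14 and 0.21, adjusted p = 2.4e-06 and 1.01e-06). ptgdsb.1, a prostaglandin D synthase, fell from 19.6 ± 0.627 CPM to 6.42 ± 0.0375 CPM (log2 fold change -1.61, SE 0.14, adjusted p = 1.96e-06).

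Of 34 tested circadian clock genes, 12 rose and 4 fell, with a median of 0.22 (0.06 with upper quartile scaling). PER2 (ENSDARG00000034503), a repressor of the clock, was at 28.7, 27.5 and 27.0 CPM at 50 dpf and 53.8, 44.9 and 53.4 CPM at 8 mpf. PER3 (ENSDARG00000010519), another, was at 10.4, 9.20 and 9.17 CPM in the 50 dpf libraries and 17.9, 18.1 and 17.3 CPM in the 8 mpf libraries. BMAL1 (ENSDARG00000035732), of the activating pair, was at 5.79, 6.31 and 6.57 CPM at 50 dpf and 13.1, 12.6 and 14.5 CPM at 8 mpf. BHLHE40 (ENSDARG00000004060), a repressor induced with them, was at 1.56, 0.864 and 2.13 CPM in the 50 dpf libraries and 9.42, 8.24 and 7.01 CPM in the 8 mpf libraries. All were higher in every 8 mpf library (log2 fold changes 0.87, 0.89, 1.11 and 2.41, SE 0.11, 0.15, 0.12 and 0.34, adjusted p = 2.57e-05, 0.000289, 1.17e-05 and 7.74e-05). PER3 was not called by limma on the deposited normalized values (adjusted p = 0.0696 with a pseudocount of 1 and 0.0774 with 0.1). nr1d2a (ENSDARG00000003820), of the Rev-erb receptors that repress BMAL1, fell from 11.5 ± 0.278 CPM to 3.20 ± 0.633 CPM (log2 fold change -1.84, SE 0.23, adjusted p = 3.05e-05). Time of day at sampling is not in the labels, so an age difference and a difference in sampling hour cannot be told apart. Of 40 tested immediate early genes, 8 rose and 13 fell. FOS was at 37.6, 37.9 and 37.3 CPM at 50 dpf and 29.9, 26.6 and 25.03 CPM at 8 mpf. egr1 was at 10.8, 12.03 and 11.1 CPM in the 50 dpf libraries and 7.13, 8.02 and 5.55 CPM in the 8 mpf libraries. Both of these growth-induced factors were lower than at 50 dpf (log2 fold changes -0.47 and -0.71, adjusted p = 0.00275 and 0.0125). ier2a and IER5 fell further (log2 fold changes -1.34 and -1.22, adjusted p = 1.2e-05 and 1.73e-05), and NR4A1 was not called (adjusted p = 0.45). DUSP2 and ZFP36L1 (ENSDARG00000021443) were among the 8 that rose (log2 fold changes 1.47 and 0.93, adjusted p = 0.00149 and 0.000524). The call of egr1 was lost without 8 mpf replicate 3 (adjusted p = 0.0561), and NR4A1 passed as lower without 8 mpf replicate 2 (adjusted p = 0.0337). Of 30 tested genes in the list of cytosolic heat shock and chaperone genes, 6 rose and 11 fell. hsp70.1 was at 18.0, 22.8 and 25.2 CPM at 50 dpf and 9.78, 10.3 and 8.08 CPM at 8 mpf, with no older library above a younger one (log2 fold change -1.23, SE 0.15, adjusted p = 2.54e-05). HSPA9, which is a mitochondrial and not a cytosolic chaperone, rose from 252 ± 10.9 CPM to 422 ± 45.5 CPM (log2 fold change 0.75, SE 0.11, adjusted p = 0.00013). Of 26 tested glycolysis genes, 7 rose and 8 fell (6 and 5 without 50 dpf replicate 1), near the shares of all tested genes. HK2, a hexokinase, rose from 137 ± 6.399 CPM to 284 ± 36.3 CPM (log2 fold change 1.05, SE 0.10, adjusted p = 5.01e-06), and GAPDH fell from 3062 ± 270.3 CPM to 1519.8 ± 354 CPM (log2 fold change -1.01, SE 0.20, adjusted p = 0.000852).

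**Figure D4:**
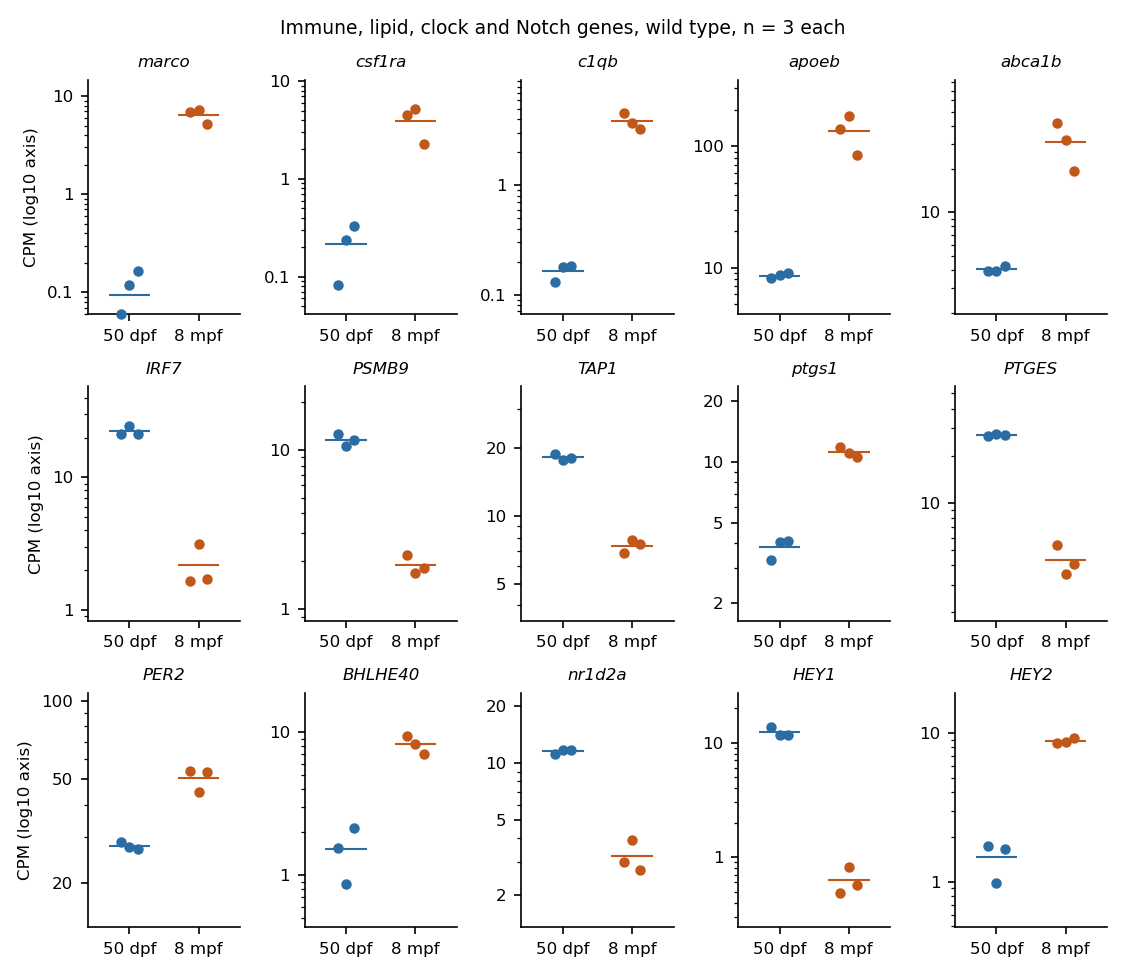
CPM in each wild-type library on log10 axes for genes of macrophages and lipid transport (upper row), of the interferon and eicosanoid lists (middle row) and of the clock and Notch lists (lower row), 3 libraries at 50 dpf and 3 at 8 mpf, with a bar at each group mean. marco rose from at most 0.165 CPM to 5.21 to 7.30 CPM, IRF7 fell from 21.2 to 24.2 CPM to 1.66 to 3.13 CPM, and HEY1 and HEY2 moved in opposite directions. A library with no count is drawn on the lower edge of its panel.

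Genes of cell junctions and of the extracellular matrix moved in both directions. Of 47 tested junction and cadherin genes, 13 rose and 11 fell, which is near the shares of all tested genes. cldnd (ENSDARG00000006580), a claudin of the early embryo, was at 6188, 4829 and 5208 CPM in the 50 dpf libraries and 2055, 1397 and 2043 CPM in the 8 mpf libraries. epcam (ENSDARG00000040534), an epithelial adhesion molecule, was at 2409, 2076 and 2131 CPM at 50 dpf and 807, 614 and 756 CPM at 8 mpf. No older library came near the younger range of either (log2 fold changes -1.56 and -1.604, SE 0.21 and 0.16, adjusted p = 5.89e-05 and 5.94e-06). GJA1 (ENSDARG00000041799), the gap junction protein connexin 43, was at 10.4, 19.0 and 16.1 CPM in the 50 dpf libraries and 2.17, 3.80 and 2.37 CPM in the 8 mpf libraries and fell (log2 fold change -2.44, SE 0.33, adjusted p = 5.06e-05). CDH2 (ENSDARG00000018693), N-cadherin, was at 4.56, 2.83 and 4.55 CPM at 50 dpf and 17.6, 12.2 and 10.6 CPM at 8 mpf. cdh1, E-cadherin, was at 71.9, 84.4 and 68.0 CPM in the 50 dpf libraries and 94.9, 103 and 96.2 CPM in the 8 mpf libraries. Both cadherins rose (log2 fold changes 1.75 and 0.39, SE 0.23 and 0.10, adjusted p = 3.88e-05 and 0.00441), as did tjp3 of the tight junction (log2 fold change 0.87, adjusted p = 1.02e-05). The call of cdh1 was lost with upper quartile scaling (adjusted p = 0.0547). Of 57 tested collagen and extracellular matrix genes, 15 rose and 16 fell, again near those shares. col7a1 (ENSDARG00000021720), the anchoring fibril collagen, was at 0.0658, 0.149 and 0.312 CPM at 50 dpf and 9.27, 9.13 and 9.44 CPM at 8 mpf. col4a5 (ENSDARG00000052063), a basement membrane chain, was at 19.5, 18.0 and 21.0 CPM in the 50 dpf libraries and 5.12, 3.12 and 2.91 CPM in the 8 mpf libraries. col4a6 (ENSDARG00000052061), another, was at 7.16, 6.26 and 8.25 CPM at 50 dpf and 0.810, 1.24 and 0.848 CPM at 8 mpf. The first rose and the others fell (log2 fold changes 5.71, -2.40 and -2.89, SE 0.51, 0.23 and 0.26, adjusted p = 2.63e-06, 3.8e-06 and 2.68e-06). Without 50 dpf replicate 3 the log2 fold change of col7a1 was 6.54. NID1 (ENSDARG00000068710), which links basement membrane networks, fell from 15.9 ± 0.773 CPM to 5.87 ± 0.725 CPM (log2 fold change -1.44, adjusted p = 2.16e-06), and the protease MMP9 rose from 21.2 ± 0.456 CPM to 47.5 ± 9.06 CPM (log2 fold change 1.17, adjusted p = 4.15e-05). Stromal markers summed to 64.9, 63.9 and 63.4 CPM in the 50 dpf libraries and 49.7, 51.1 and 41.7 CPM at 8 mpf, where 3 of 21 tested members rose and 7 fell (3 and 4 without 8 mpf replicate 3), with SPARC at 8.75 ± 0.366 CPM at 50 dpf and 2.40 ± 0.782 CPM at 8 mpf (log2 fold change -1.87, SE 0.23, adjusted p = 2.69e-05). Endothelial markers summed to 42.6, 39.4 and 41.4 CPM in the 50 dpf libraries and 53.2, 54.4 and 51.1 CPM at 8 mpf. Of 18 tested members, 5 were higher and 5 lower, near the shares of all tested genes. The rise of that sum came from FLT4, a receptor of lymphatic endothelial growth factors, and without it the sum was 39.1, 36.6 and 37.9 CPM in the 50 dpf libraries and 34.1, 37.8 and 33.2 CPM at 8 mpf, with overlap between the ages. Of the other members, cdh5, the endothelial cadherin, fell from 3.13 ± 0.747 CPM to 0.329 ± 0.229 CPM (log2 fold change -3.18, SE 0.45, adjusted p = 8.37e-05). kdrl, a receptor for vascular growth factor, rose from 2.28 ± 0.388 CPM to 3.48 ± 0.347 CPM (log2 fold change 0.60, adjusted p = 0.00547). ERG and TIE1 rose further (log2 fold changes 1.58 and 1.54), as vwf did (0.94), while plvapb and sox18 fell (-1.70 and -1.67). For cdh5 the log2 fold change was -3.95 without 8 mpf replicate 2.

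**Figure D5:**
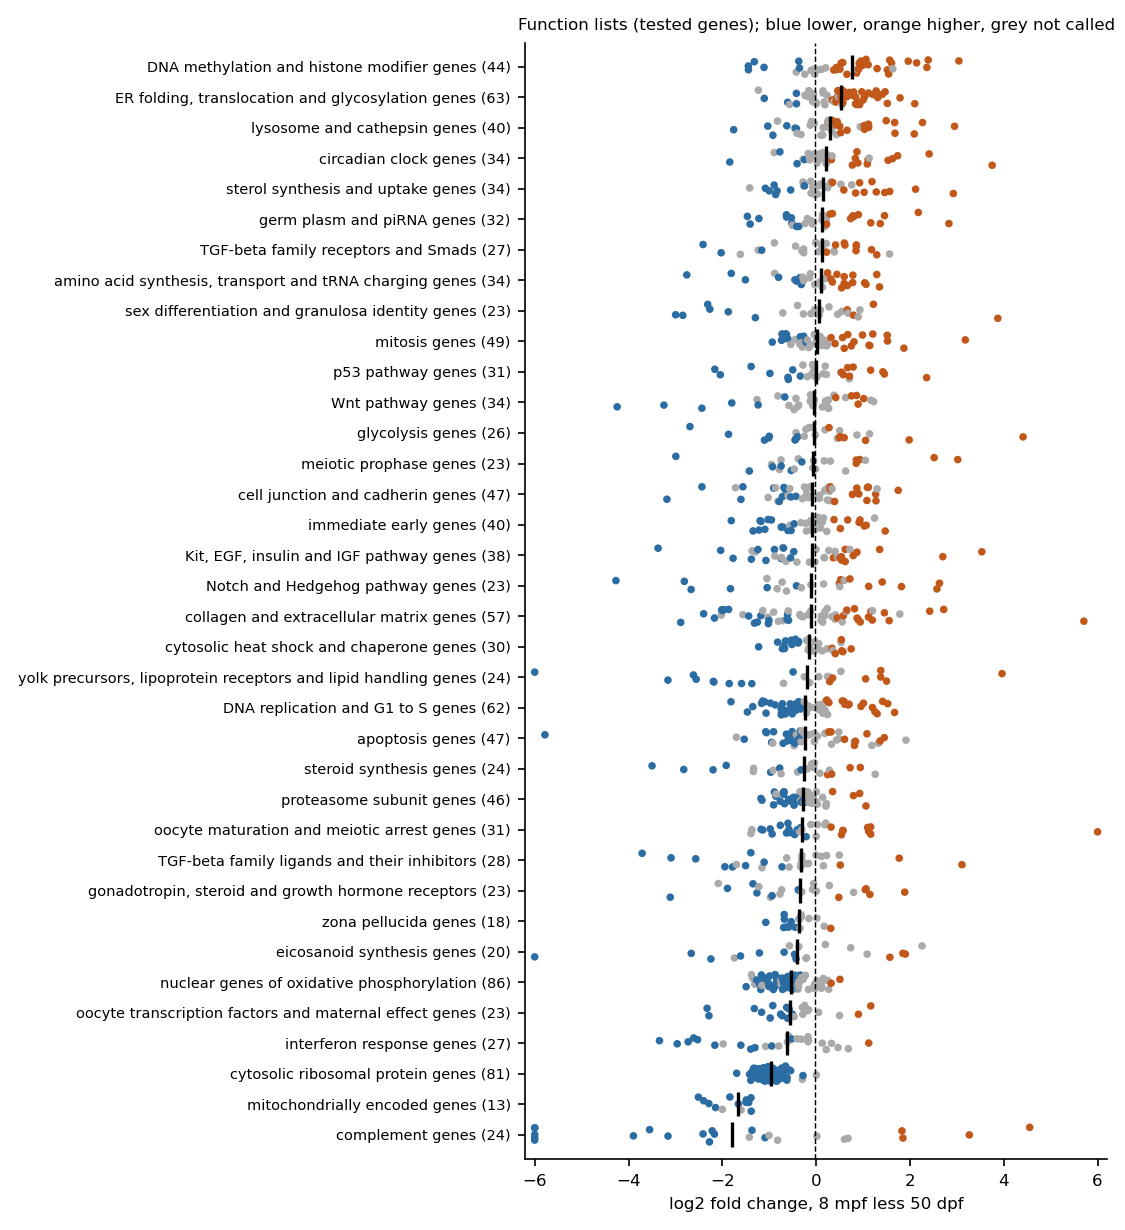
Log2 fold changes (8 mpf less 50 dpf) of the tested members of each function list, 1 point per gene, with a bar at the list median and a dashed line at the median of all tested genes (-0.026). Ribosomal protein genes are the tightest low list, ER and chromatin genes sit to the right, and most other lists straddle the line. Points beyond 6 on either side are drawn at the edge.

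The age effect was compared with that of the heterozygotes, whose libraries are separate from the wild-type ones at both ages. It differed between the genotypes for 13.5% of the tested genes. Among the marker lists it differed for 27 of 37 liver genes, 15 of 19 pancreas genes and 3 of 10 intestinal genes. Some members, such as ahsg2 and chia.1, were near the detection limit in every group but wild type of 50 dpf. These were tested through that group and could hardly differ in the other direction. The filter on low counts therefore sets part of the liver and intestinal counts. The liver list summed to 46.4 to 56.7 CPM in the heterozygote libraries at 50 dpf and to 39.3 to 48.7 CPM at 8 mpf, so the level of 331 to 343 CPM was seen in wild type of 50 dpf alone among these groups. The median of the liver list in heterozygotes was -0.05, with members called in both directions. Among those that fell there were fetub and apoa2, from means of 5.67 and 6.59 CPM to 1.16 and 1.44 CPM. Those that rose there were apobb.1, kng1 and ITIH2, from 0.230, 8.14 and 1.61 CPM to 1.03, 13.3 and 7.49 CPM. Of the tested pancreas markers, all but amy2a and pdia2 fell with age in heterozygotes. There prss1 went from a mean of 58.0 CPM to 14.2 CPM and ela3l from 18.3 CPM to 5.34 CPM. Their log2 fold changes in heterozygotes were -2.03 and -1.78 (adjusted p = 2.13e-05 and 0.000101), smaller falls than in wild type. The amylase gene amy2a and pdia2 were not called in heterozygotes (adjusted p = 0.202 and 0.538). Among the other lists, the difference was called for 10 of 24 complement genes, 8 of 24 yolk and lipid genes and 16 of 62 replication genes. It was called for 1 of 86 oxidative phosphorylation genes, 6 of 63 ER genes, 4 of 44 chromatin genes and 0 of 23 oocyte transcription factor and maternal effect genes. The complement count has the same limit as the liver count, as c8a was also near the detection limit outside wild type of 50 dpf.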

How the data were processed

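Total RNA of zebrafish follicles was extracted with TRIzol and made into directional Illumina libraries, per the labels' protocols. The submitters' processing notes name bcl2fastq, FastQC 0.11.5, HISAT2, StringTie, DESeq2 and the build GRCz11, with no role or order, and the annotation release and strand setting are not given in the sources used here. The authors deposited a table of counts per gene, taken here as estimated counts because StringTie is named and the second table carries factors of single genes; its values were whole numbers and rounding changed nothing. The authors also deposited a table of normalized values, a signal that equals the count divided by factors of the sample and, for many genes, of the gene. Per the file headers, each of the 12 columns is 1 sample, and no column was pooled.

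The counts were analysed with edgeR 4.0.16 in R 4.3.3: edgeR's own filter on low counts over the 4 groups (18834 of 26339 genes with a count were tested), TMM scaling, 1 quasi-likelihood fit over all 12 libraries (3 in each group), and Benjamini-Hochberg adjustment over all tested genes at 0.05. The SE of a log2 fold change is its size divided by the square root of its F statistic. CPM is relative to the TMM-scaled library size and is not corrected for gene length, so levels are compared between libraries and not between genes. Depth was 31044931 to 66844694 counts per wild-type library. Marker sums were compared with exact permutation tests (scipy 1.17.1). For ela2l and alox5b.3, with 3 or fewer counts at 8 mpf, a ratio with an exact 95% counting interval was given. For chia.1 a floor of 3 counts per library was used. Both cover counting error only, and neither is given for ahsg2, uox, cyp2ad2 and AGXT. The difference of the age effect between wild type and heterozygotes was tested as an interaction in the same fit. The fit was run on simulated counts of 18834 genes, with 100 genes changed per size. It recovered 54% of them at a log2 change of 1 and 87% at 2, and called 9 unchanged genes. Far fewer genes changed there than were called in the data. The simulation therefore cannot show how scaling and error control hold when most genes are called.

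The 36 function lists and 11 marker lists, like the comparison itself, were chosen with earlier results of these data known. Of 1683 symbols, 1265 were matched exactly, 324 in capitals without the letter that marks a paralog, because the symbol tables pair many zebrafish genes with such names, and 94 not at all. This fallback departs from the matching first written down, and several genes can carry 1 symbol. The lists hold 1606 genes, of which 67 are in more than 1 list and 1434 were tested. Named genes were the 12 with the smallest p in each direction among called genes that changed by 1 or more on the log2 scale, with no overlap between libraries and at least 5 CPM in the higher group, up to 3 called genes of each list in each direction with at least 1 CPM, and a few of each list given whatever their value. The genes ahsg2, uox, cyp2ad2, AGXT and MT-ND2 were named after their values were seen. Some genes that the rule names are not reported here.

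Alternatives were other scalings, DESeq2 1.42.0, limma 3.58.1 on log2 of the deposited normalized values plus a pseudocount of 1 or 0.1, other filters, the wild-type libraries alone, a replicate block, and each library left out in turn. Chosen after seeing the data were exact symbol matching alone, bounds for genes with no count at an age, and the same edgeR settings for the difference between genotypes.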

Additional observations from a re-analysis of the deposited data

Results flagged for a closer look

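The difference between genotypes was read for 205 of the genes named in the text. Of these, 63 had an age effect that differed between wild type and heterozygotes at an adjusted p under 0.05 in edgeR's interaction test. This difference between the groups is what brought them here. Heterozygotes were compared with their own 50 dpf libraries. For 58 of the 63, every one of the 4 groups held more than 10 counts, and their values follow as the wild-type age effect less that of heterozygotes on the log2 scale: a negative value means that the wild-type change was the lower of the pair. The difference was positive for 24 and negative for 34. The other 5 rest on 10 counts or fewer in a group, where a fitted value depends on the prior count, and are not given. Across the edgeR settings, 48 to 78 of the 205 genes differed, with the highest number without 8 mpf replicate 2. FLT4 and amy2a, also named above, were not among the 205. They differed too, by 3.03 and -3.77 (adjusted p = 7.52e-07 and 0.000347 in the interaction test). FLT4 rose with age in wild type and fell in heterozygotes (log2 fold changes 2.45 and -0.58).

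Among the liver and plasma protein genes, the difference was fabp10a -7.72, apoa2 -4.32, FGB -3.16, c9 -3.11, vtg1 -1.61 and vtg2 -1.56. Among the digestive enzymes and muscle genes it was prss1 -1.33, ela3l -2.44, amy2al1 0.551 and actn3b -5.15, so amy2al1 went the other way from the other enzymes.

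In the germ cell and cell cycle lists the difference was tdrd12 -1.02, stag3 0.739, TBPL1 -0.414, CCNE2 -1.61, ATR 0.741, mdm2 -0.412, cdkn1a -2.26 and tet3 -1.41. cdkn1a is the gene that differs between the genotypes by design. In the granulosa, steroid and growth factor lists it was FOXL2 (ENSDARG00000068417) -1.61, WNT4 -1.47, SOX9 (ENSDARG00000043923) 1.38, hsd17b1 -2.63, CYP17A1 0.48, gsdf -0.909, bmp16 1.3, ndr1 1.51, BMPR1A (1 of the genes of that name) 0.633, ACVR1C -1.56, ESR2 0.684 and hbegfa -0.471. Of the Notch and Wnt genes, it was HEY2 1.72 and FZD8 -1.5.

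For 3 genes of the complement, lipid and leukocyte lists the difference was apoeb 2.92, c1qb 2.25 and, for 1 of the genes named CXCR4, 2.44. For 2 of the interferon list it was IRF7 -2.93 and PSMB9 -1.07. The remaining genes of the lists were ptgs1 1.14, ptgdsb.1 1.11, LSS -0.975, MT-ND3 -0.814, ier2a -1.22, IER5 -0.647, epcam -1.02, col7a1 2.72, col4a6 -1.32, MMP9 1.51, cdh5 -3.3 and kdrl -1.34. Among the genes with the smallest p-values, the difference was DLG4 1.58, KCTD12 3.16, SOX4 2.27, EPB41L4B 2.11, ALDOC 0.573, WIPF2 0.836, helz2c -4.02, prkd4 -4.19 and TFAP2E 0.732.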

How the results depend on the processing

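The 10397 genes called between the ages (5397 higher, 5000 lower) became 10492 (5080 and 5412) with RLE scaling, 10652 (4435 and 6217) with upper quartile scaling, 10212 (5766 and 4446) with no scaling beyond library size, 10883 (5248 and 5635) by DESeq2, 10099 (4815 and 5284) by limma with a pseudocount of 1, and 8885 to 10391 with 1 library left out. Without a filter 10002 were called, with a mean of at least 10 counts 10223, and in the wild-type libraries alone 10620. Requiring also a change of 1 or more on the log2 scale left 5187 calls, 2556 higher and 2631 lower. Of the genes called as reported, 9435 were called in the same direction with upper quartile scaling and 9324 without 8 mpf replicate 2.

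Same-numbered libraries did not deviate together (correlations of 0.026, 0.025 and -0.019 for numbers 1, 2 and 3), so the numbers were not taken to pair the samples. The fit with the replicate number as a block called 10198 genes (5272 and 4926) and changed 3 of the 205 named genes, CCNB1, DMRT1 and SYCP1, which passed under it.

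Of 3278 values of the named genes under the alternatives, 3189 kept direction and side of the threshold, 41 lost the call, 39 gained one and 9 changed sign. 20 genes had a lost call or a changed sign, and the other 185 had neither. The changes of sign were all in genes without a call: buc reached -0.106 with upper quartile scaling and CDK1 -0.131 with upper quartile scaling, -0.0211 with RLE, -0.0215 by DESeq2 and -0.0209 by limma with either pseudocount. With a library left out, CDK1 ranged from -0.0273 to 0.127, KIT from -0.0273 to 0.777 and PTCH1 from -0.267 to 0.233. bmp15, GDF9 and mdm2 passed as lower with upper quartile scaling (adjusted p = 0.00498, 0.00554 and 0.00443).

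Of 799 list medians under the alternatives, 675 were counted as moving by less than the spread between libraries, 118 as moving further and 6 as changing sign. That last count does not cover every median near 0 that crossed it. With upper quartile scaling, germ plasm and piRNA genes went from 0.13 to -0.0278 and mitosis genes from 0.0279 to -0.131. Sterol genes went from 0.141 to -0.0177 and amino acid and tRNA charging genes from 0.108 to -0.0507. Junction genes went from -0.0803 to 0.00641 without 8 mpf replicate 2. The median of TGF-beta receptors and Smads went to -0.0416 with upper quartile scaling, and that of skeletal muscle markers from -0.0654 to 0.00974 with no scaling beyond library size, to 0.257 with exact symbol matching and to between -0.0883 and 0.132 with a library left out. The log2 ratio of the summed leukocyte markers, -0.0861, ranged from -0.171 without 8 mpf replicate 2 to 0.0569 without 8 mpf replicate 3. The causes were not tested beyond the construction of each alternative. Genes with a few counts, such as faslg, cfb and marco, are limited by depth, and 3 libraries against 3 allow no exact permutation p under 0.1.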
